A study of Homo sapiens with 12 samples.

Results

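Core histone coding regions were followed in human HEK293T Flp-In cells, a wild type embryonic kidney line that carries a site for transgene insertion. Members were taken from a list of 36 transcript IDs of replication-dependent H2A, H2B, H3 and H4 genes. Of these, 32 were found in the monosome tables, and the other 4 were not analysed here. Members were then selected on transcript ID and full coding length, not on counts. The length of the family (129 to 131 codons for H2A, 127 for H2B, 137 for H3, 104 for H4) was required, and 31 passed, of 100283 monosome rows with a coding length. ENST00000606613, at 167 codons, did not pass and was left out. In 3 cases a member shared every monosome count with another, so the members stood for 28 distinct coding regions, 11 of H2A, 11 of H2B, 1 of H3 and 5 of H4. In the alignment of the tables by coding length, 27 of them were paired with a row of the disome and RNA-seq tables. For 24 the pair was the same in both alignments made, and for ENST00000615966, ENST00000618958 and ENST00000613174 it was not. The list was drawn up with results of these data in view, although its rule uses only IDs and lengths, so the counts and tests that follow describe a chosen set.

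Cells received girolline at 10 µM, girolline at 1 µM or the solvent DMSO for 2 h, and the series title places the compound's action at eIF5A, a factor that assists translating ribosomes. Poly(A) RNA-seq measured mRNA with a tail, monosome footprints measured fragments held by single ribosomes, and disome footprints measured longer fragments under 2 stacked ribosomes. For every kind there was 1 library at 10 µM, 1 at 1 µM and 2 with DMSO, 12 libraries in all. Total counts lay between 28424272 and 42194871 in RNA-seq, 21570489 and 38074691 in monosome, and 3091715 and 5769026 in disome libraries.

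Histones H2A, H2B, H3 and H4 form the protein core of the nucleosome, around which DNA is wound, with H3 and H4 at its centre and H2A and H2B flanking them. The replication-dependent genes for these proteins lie in clusters, lack introns and are used mainly while DNA is copied. Their mRNAs normally end in a stem-loop bound by the stem-loop binding protein SLBP in place of a poly(A) tail. Poly(A) RNA-seq therefore reads only the part of each transcript population that carries a tail, whereas footprints come from translated mRNA of either kind.

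The files and reference tables used here do not pair transcript IDs with gene symbols, so each member is named by its ID and family. Histone processing factors, replacement variants, chaperones, markers of the cell line and member sequences were not analysed here. The members lay close together in file order, 28 of the 31 within 151 rows and the other 3 in consecutive rows. Histone genes of a family encode near-identical proteins, and 3 transcripts shared all monosome counts with another member. How reads with several matching places were counted is not given in the sources used here. The split of reads between members of a family is therefore uncertain. Rows outside the list with counts within 2% in every library lay beside 4 members in monosome tables (ENST00000377791, ENST00000377727, ENST00000607124 and ENST00000611927), 3 in disome tables (ENST00000369155, ENST00000377791 and ENST00000377727) and 2 in RNA-seq tables (ENST00000377791 and ENST00000377727). Whether counting used strand is also not given.

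Levels are given in CPM, counts scaled to library size, so a change is relative to the other transcripts of a kind, and pairs of DMSO values are given as DMSO 1, then DMSO 2. A member is called where the edgeR quasi-likelihood test, after Benjamini-Hochberg adjustment over the whole table, gave an adjusted p under 0.05. With 1 library per dose, the test takes that library to be as variable as the DMSO libraries. An SE given here is the absolute log2 fold change divided by the square root of the test's F value. It is not a spread measured between libraries of a dose. Separate cultures are not stated for the DMSO libraries, and the p-values then reflect only how these particular libraries differ, possibly for technical reasons. Over the members, the median log2 ratio of DMSO 2 to DMSO 1 was -0.04 in disomes, -0.06 in monosomes and -0.10 in RNA-seq. Single members reached 0.37 in disomes, -0.42 in monosomes and 0.60 in RNA-seq. In these bulk libraries, a different share of cells holding a transcript and a different amount per cell cannot be told apart.

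In DMSO, core histone coding regions had many monosome footprints for their poly(A) RNA and few disome footprints for their monosomes, beside the paired rows that passed a count filter. The log2 ratio of monosome to RNA-seq CPM per counted codon had a median of 1.42 in DMSO 1 and 1.55 in DMSO 2 over 27 members, against -0.38 and -0.37 over all paired rows with at least 20 counts, and 97.5% of those rows lay below the member median in each library. The log2 ratio of disome to monosome CPM per counted codon had a median of -1.58 and -1.49 over 24 members. Over all paired rows with at least 20 counts in both kinds (14324 and 19449 rows), the median was 0.01 and -0.06. Of these rows, 4.15% and 6.41% lay below the member median. Rows with fewer disome counts, some H2B members among them, were left out of both sides. Disome libraries held fewer counts than monosome libraries, so rows with few monosomes entered only where their disome share was high. This filter can raise the median over all rows, by an amount that was not tested. Rows of like coding length were not set beside the members for these ratios. These are descriptions with no test. The counted stretch of the coding region differs between kinds, and RNA-seq here holds only tailed mRNA.

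Levels per counted length differed widely within families. In monosomes, CPM per 100 codons ran in DMSO 1 from 38.5 to 658 over the 11 H2A members, from 52.7 to 757 over the 11 H2B members and from 202 to 675 over the 5 H4 members. The top H2A member was ENST00000331380, at 658 and 705 monosome CPM per 100 codons in the 2 DMSO libraries. The top H2B member was ENST00000369155, at 757 and 755, followed by ENST00000356950 at 668 and 642. ENST00000377803 led the H4 members with 675 and 629. The H3 member stood at 715 and 713, within the range of these leading members.

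Poly(A) RNA of the H2A and H2B members rose at 10 µM girolline. All 11 H2A members, all 10 paired H2B members and 1 of 5 H4 members were called higher, and the H3 member was not called, which gave 22 of 27 higher and 0 lower. Over the whole RNA-seq table only 0.537% of 56229 rows were called higher and 0.571% lower, and among rows from 100 to under 150 codons 0.72% were higher and 0.972% lower. The median log2 fold change over the members was 0.95 (range 0.06 to 1.76), against -0.01 over all rows. By family the medians were 1.18 for H2A, 1.08 for H2B, 0.33 for the H3 member and 0.34 for H4. DESeq2 called 11 H2A, 9 H2B and 0 H4 members higher. Over the 24 members whose pair was the same in both alignments, 19 were called higher, without ENST00000615966, ENST00000618958 and ENST00000613174. The other settings changed the count by less than 1.5 times, except a fit that took both doses as 1 group, which called 0.

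Summed over a family, poly(A) RNA of H2A stood at 1448 and 1209 CPM in the DMSO libraries, 1400.2 CPM at 1 µM and 2808 CPM at 10 µM. The H2B sum was 1876 and 1919 CPM in DMSO, 2063 CPM at 1 µM and 3449.7 CPM at 10 µM. The 10 µM library was thus 2.11 times the DMSO mean for H2A and 1.82 times for H2B. The H4 sum was 613 and 653 CPM in DMSO, 668 CPM at 1 µM and 777 CPM at 10 µM, or 1.23 times the DMSO mean at 10 µM, and the 1 µM sums of the 4 families lay between 1.05 and 1.09 times that mean. These sums are of single libraries per dose and were not tested.

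**Figure D1:**
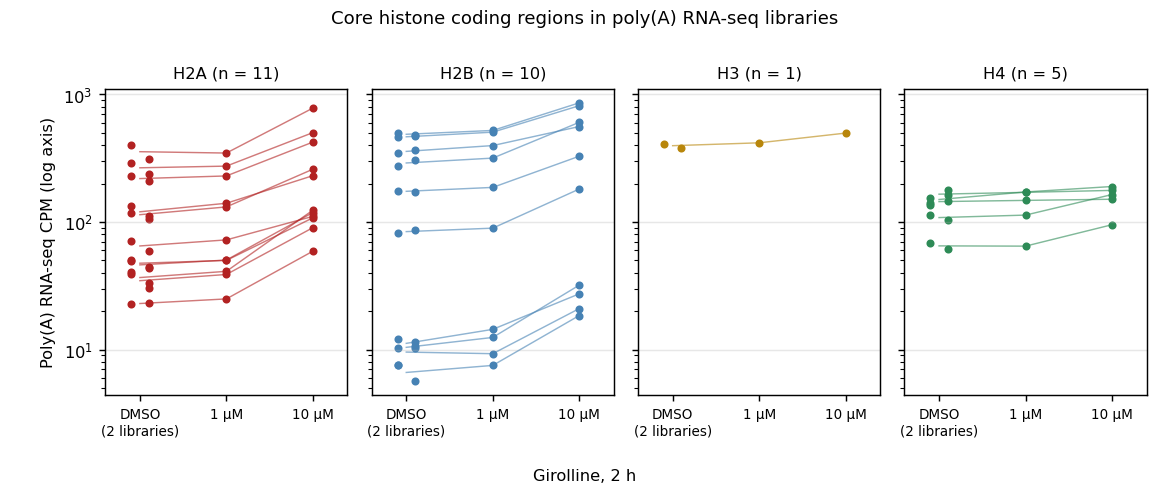
Poly(A) RNA-seq level in CPM (log axis) of each core histone coding region in each library, by family; points are libraries (2 for DMSO, 1 per dose) and lines join the DMSO mean to the 2 doses. All H2A and H2B lines turn upward between 1 and 10 µM, and the H3 line rises less, from 418 to 498 CPM. Of the H4 lines, those of ENST00000611927, ENST00000615164 and ENST00000377727 rise to 95.2, 164 and 190 CPM. Those of ENST00000377803 and ENST00000377745 stay nearly level.

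Among H2A members, ENST00000331380 had 402 and 309 CPM of poly(A) RNA in DMSO, 347 CPM at 1 µM and 782 CPM at 10 µM. The 10 µM library exceeded DMSO by a log2 fold change of 1.14 ± 0.15 (SE) at an edgeR adjusted p of 1.25e-10. ENST00000613174 moved furthest, with 40.3 and 33.0 CPM in DMSO, 41.0 CPM at 1 µM and 124 CPM at 10 µM (log2 fold change 1.76 ± 0.18 SE, edgeR adjusted p = 9.27e-19). In both members the 10 µM library lay above the other 3, but the RNA-seq row of ENST00000613174 was not the same in both alignments. The smallest H2A change was that of ENST00000331128, at 70.3 and 59.4 CPM in DMSO, 72.4 CPM at 1 µM and 111 CPM at 10 µM (log2 fold change 0.77, edgeR adjusted p = 0.00295). ENST00000613174, ENST00000541790 and ENST00000615164 were chosen for mention after their values were seen.

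Of the H2B members, ENST00000369155 had 495 and 480.3 CPM of poly(A) RNA in DMSO, 522 CPM at 1 µM and 859.8 CPM at 10 µM (log2 fold change 0.82 ± 0.15 SE, edgeR adjusted p = 1.67e-05). ENST00000314332 had 277 and 304 CPM in DMSO, 317 CPM at 1 µM and 605 CPM at 10 µM (log2 fold change 1.06, edgeR adjusted p = 7.95e-09). ENST00000377777 had the smallest H2B change, with 349 and 367 CPM in DMSO, 397 CPM at 1 µM and 561 CPM at 10 µM (log2 fold change 0.65, edgeR adjusted p = 0.00489). The 10 µM value was above both DMSO values in each of these 3 members. The largest H2B change was that of ENST00000541790, a log2 fold change of 1.62, which stood at 10.2 and 10.6 CPM in DMSO, 12.4 CPM at 1 µM and 32.0 CPM at 10 µM.

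The H3 member ENST00000621411 was not called in poly(A) RNA, at 410.1 and 383 CPM in DMSO, 418 CPM at 1 µM and 498 CPM at 10 µM (log2 fold change 0.33, edgeR adjusted p = 0.405). Nor was the H4 member ENST00000377803, at 153 and 177 CPM in DMSO, 171 CPM at 1 µM and 177 CPM at 10 µM (log2 fold change 0.10, edgeR adjusted p = 0.91). ENST00000377745 stayed at 142 and 147 CPM in DMSO, 148 CPM at 1 µM and 151 CPM at 10 µM, the smallest log2 fold change of the 27 members at 0.06. For ENST00000377803 both doses lay within the DMSO values. ENST00000615164 was the 1 H4 member called higher in poly(A) RNA, with a log2 fold change of 0.60 at an edgeR adjusted p of 0.0425, and had 164 CPM at 10 µM against 114 and 103 CPM in DMSO.

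At 1 µM no member was called in RNA-seq, by edgeR or by DESeq2. None of the 27 reached an unadjusted p under 0.05 in edgeR either, and 0% of all rows were called at this dose. The median log2 fold change of the members was 0.12.

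Monosome footprints moved apart by family at 10 µM. H2A members were called higher in 7 of 11 cases and lower in none, whereas H2B members were called lower in 7 of 11 cases and H4 members in 4 of 5, and none of either was called higher. The H3 member was not called. Over the 28 members that made 7 higher and 11 lower, beside 16.6% of all 55409 rows called higher and 15.7% called lower. Among rows from 100 to under 150 codons, 16.5% were called higher and 11.7% lower. The member median log2 fold change was -0.10 (range -1.02 to 0.75), with 0.18 for H2A, -0.28 for H2B and -0.58 for H4, against 0.01 over all rows.

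The family sums show the same order of values. H2A held 3741 and 3941 monosome CPM in DMSO, 4025 CPM at 1 µM and 4823 CPM at 10 µM, which is 1.26 times the DMSO mean at 10 µM. H2B held 4541 and 4287 CPM in DMSO, 4199 CPM at 1 µM and 3624 CPM at 10 µM, or 0.821 times. H4 held 2036 and 1908 CPM in DMSO, 1791 CPM at 1 µM and 1278 CPM at 10 µM, or 0.648 times. Summed over all 28 members, the 10 µM library was at 0.960 times the DMSO mean, so the sum of these members was nearly level while the families differed. That sum holds only 1 H3 member and lacks some listed transcripts, so it is not the total of all core histone genes.

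Calls in monosomes depended on the fit. The DMSO monosome libraries were close to each other, with a common coefficient of variation of 3.85%, and a joint fit of all 12 libraries, whose spread is shared with the noisier kinds, called 4 members higher and 7 lower at 10 µM. That joint fit called 3 higher and 5 lower without DMSO 1, and 3 higher and 6 lower without DMSO 2. Among single members, the H2A rises of ENST00000377459, ENST00000377791 and ENST00000618958 were called neither by the joint fit nor by DESeq2, which called 4 higher and 8 lower, and the H2B fall of ENST00000356950 was not called by the joint fit. Without a DMSO monosome library, either one, the joint fit also did not call the H2A rise of ENST00000333151 and the H2B fall of ENST00000369155.

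**Figure D2:**
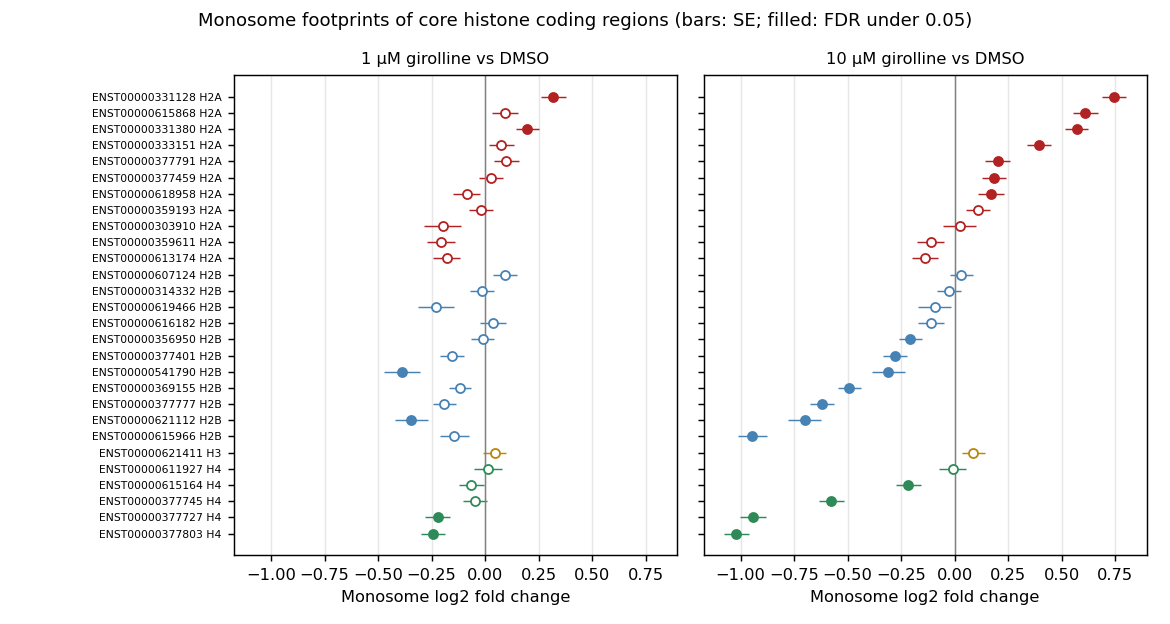
Monosome log2 fold change of each core histone coding region at 1 µM (left) and 10 µM (right) against DMSO, with bars of 1 SE and filled points where the adjusted p was under 0.05. At 10 µM the H2A points reach 0.75 and the H4 points reach -1.02.

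ENST00000331380, the most footprinted H2A member, had 789 and 846 monosome CPM in DMSO, 938 CPM at 1 µM and 1213 CPM at 10 µM. At 10 µM it was up by a log2 fold change of 0.57 ± 0.05 (SE; edgeR adjusted p = 1.79e-17). ENST00000331128 had the largest H2A change, with 302 and 278 CPM in DMSO, 361 CPM at 1 µM and 486 CPM at 10 µM (log2 fold change 0.75 ± 0.06 SE, edgeR adjusted p = 2.55e-22). In both, each dose stood above both DMSO libraries, and both were also called at 1 µM (log2 fold changes 0.20 and 0.32, edgeR adjusted p = 0.0223 and 0.000106). ENST00000615868 had 217 and 209 CPM in DMSO, 227 CPM at 1 µM and 326 CPM at 10 µM, and ENST00000333151 had 371 and 372 CPM in DMSO, 392 CPM at 1 µM and 488 CPM at 10 µM. Their log2 fold changes at 10 µM were 0.61 and 0.39. ENST00000359193, with 552 and 602 CPM in DMSO, 569 CPM at 1 µM and 622 CPM at 10 µM, was not called (log2 fold change 0.11, edgeR adjusted p = 0.122).

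The H2A members ENST00000377459, ENST00000377791 and ENST00000618958 rose by less, with log2 fold changes of 0.18, 0.20 and 0.17 at 10 µM and edgeR adjusted p of 0.00614, 0.00313 and 0.0217. ENST00000377459 had 518 and 576 CPM in DMSO, 559 CPM at 1 µM and 622 CPM at 10 µM. For the last of the 3, the values were 193 and 203 CPM in DMSO, 187 CPM at 1 µM and 223 CPM at 10 µM, so its 1 µM library was the lowest.

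Among H2B members, ENST00000369155 had 885 and 883 monosome CPM in DMSO, 815 CPM at 1 µM and 628 CPM at 10 µM (log2 fold change -0.49 ± 0.05 SE, edgeR adjusted p = 1.92e-13). ENST00000377777 had 620.1 and 593 CPM in DMSO, 532 CPM at 1 µM and 395 CPM at 10 µM (log2 fold change -0.62 ± 0.06 SE, edgeR adjusted p = 2.48e-17). In both members each dose lay below both DMSO libraries, the higher dose further. ENST00000356950 fell by less, at 781 and 751 CPM in DMSO, 759.9 CPM at 1 µM and 664 CPM at 10 µM (log2 fold change -0.21, edgeR adjusted p = 0.00125). ENST00000314332 (504, 453, 473 and 469 CPM in DMSO 1, DMSO 2, 1 µM and 10 µM) and ENST00000607124 (618, 580.1, 639 and 612 CPM in that order) had log2 fold changes of -0.03 and 0.03 and were not called. The largest H2B change was -0.95, in ENST00000615966, which had 69.6 CPM at 10 µM against 133 and 135 CPM in DMSO.

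The largest monosome decrease of the 28 members was in H4. ENST00000377803 had 634 and 592 CPM in DMSO, 517 CPM at 1 µM and 302 CPM at 10 µM (log2 fold change -1.02 ± 0.06 SE, edgeR adjusted p = 5.02e-31). ENST00000377727 had 409 and 407 CPM in DMSO, 350.1 CPM at 1 µM and 212 CPM at 10 µM (log2 fold change -0.94 ± 0.06 SE, edgeR adjusted p = 1.45e-27). ENST00000377745 had 422 and 402 CPM in DMSO, 399 CPM at 1 µM and 277 CPM at 10 µM (log2 fold change -0.58, edgeR adjusted p = 4.97e-15). All 3 were lowest at 10 µM and the first 2 were called at 1 µM as well, at log2 fold changes of -0.24 and -0.22. ENST00000611927 stood apart, with 190.3 and 169 CPM in DMSO, 181 CPM at 1 µM and 179 CPM at 10 µM. The H3 member ENST00000621411 had 908 and 905 CPM in DMSO, 935 CPM at 1 µM and 963 CPM at 10 µM (log2 fold change 0.09, edgeR adjusted p = 0.199).

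At 1 µM, monosome footprints of 2 H2A members were called higher, and those of 2 H2B and 2 H4 members lower, beside 1.05% of all rows called higher and 0.729% lower, and 1.63% and 0.463% of rows from 100 to under 150 codons. The joint fit of 12 libraries called none of these 6, with or without a DMSO monosome library, and DESeq2 called 2.

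RNA and monosome changes at 10 µM were read in different libraries. Of the 22 members with more poly(A) RNA, 7 also rose in monosomes, all of them H2A, and 8 fell in monosomes, 7 of them H2B and 1 H4. That is 31.8% and 36.4% of the 22, beside 45.3% and 17% of the 247 paired rows called higher in RNA-seq over the whole table, and 37.3% and 30.5% of the 59 such rows from 100 to under 150 codons. The 22 members are themselves among the 247 and the 59 rows, as are the 3 transcripts sharing all monosome counts with a member. The shares over those rows are thus not independent of the members' shares. The 8 members that fell in monosomes include ENST00000615966, whose RNA-seq row was not the same in both alignments. Whether the tailed mRNA is the mRNA that the ribosomes held was not tested.

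Disome footprints of H2A members rose at 10 µM in 7 of 11 cases and fell in none. Of the 7 H2B members tested, 2 rose and 2 fell, of the 5 H4 members 2 rose and 2 fell, and the H3 member rose. The 24 members tested thus held 12 higher and 4 lower calls, beside 20.8% of all 34606 rows called higher and 14.9% lower. In rows from 100 to under 150 codons 31% were called higher and 8.93% lower. The member median log2 fold change was 0.29 (range -1.21 to 2.60), against -0.02 over all rows and 0.36 over rows from 100 to under 150 codons. DESeq2 called 6 higher, all of them H2A, and 3 lower, 2 of H2B and 1 of H4. The H2B, H3 and H4 rises thus rest on edgeR. Of the 9 H2A members paired the same way in both alignments, edgeR called 6 higher.

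ENST00000619466 and ENST00000621112, both H2B, had at most 4 disome counts in any library and were not tested. Their monosome levels in DMSO were 61.7 and 52.2 CPM for the first and 139.6 and 105 CPM for the second. ENST00000615966, also H2B, was not tested either: its paired row had at most 2 disome counts in any library, and that row was not the same in both alignments. ENST00000607124 was unpaired.

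Among H2A members, ENST00000618958 had the largest disome change, at 22.0 and 21.5 CPM in DMSO, 47.6 CPM at 1 µM and 131.5 CPM at 10 µM, or 59 and 99 counts in DMSO, 189 at 1 µM and 624 at 10 µM. The log2 fold change was 2.60 ± 0.21 (SE) at 10 µM and 1.13 ± 0.23 at 1 µM, with edgeR adjusted p of 4.91e-32 and 0.000116. Its levels stepped up with dose. Its disome row was not the same in both alignments of the tables. ENST00000333151, whose row was, had 65.4 and 66.2 CPM in DMSO, 105 CPM at 1 µM and 303 CPM at 10 µM (log2 fold change 2.20 ± 0.17 SE at 10 µM, edgeR adjusted p = 4.88e-34). ENST00000359193 had 94.9 and 89.6 CPM in DMSO, 129 CPM at 1 µM and 213 CPM at 10 µM (log2 fold change 1.21, edgeR adjusted p = 1.46e-10).

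Other H2A members had smaller disome changes or none that was called. ENST00000331380 had 372 and 388 CPM in DMSO, 378 CPM at 1 µM and 542 CPM at 10 µM (log2 fold change 0.51, edgeR adjusted p = 0.00187), and ENST00000331128 had 89.3 and 89.6 CPM in DMSO, 125 CPM at 1 µM and 177 CPM at 10 µM (log2 fold change 0.98, edgeR adjusted p = 5.99e-07). For both, the 10 µM library was the highest of the 4. ENST00000615868 was level at 129 and 132 CPM in DMSO, 123 CPM at 1 µM and 132 CPM at 10 µM, as was ENST00000377459 at 131 and 140.2 CPM in DMSO, 133 CPM at 1 µM and 126 CPM at 10 µM. ENST00000377791 had 223 and 234 CPM in DMSO, 177 CPM at 1 µM and 235 CPM at 10 µM. None of these 3 was called in disomes, although all 3 were called higher in monosomes and RNA-seq.

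ENST00000369155 and ENST00000377777 were the H2B members whose disomes fell. ENST00000369155 had 571 and 454 disome CPM in DMSO, 470.3 CPM at 1 µM and 243 CPM at 10 µM (log2 fold change -1.07 ± 0.15 SE, edgeR adjusted p = 5.7e-11). ENST00000377777 had 434 and 418 CPM in DMSO, 323 CPM at 1 µM and 213 CPM at 10 µM (log2 fold change -0.996 ± 0.158 SE, edgeR adjusted p = 6.4e-09). ENST00000314332 rose, at 139 and 146 CPM in DMSO, 180.2 CPM at 1 µM and 227 CPM at 10 µM (log2 fold change 0.66, edgeR adjusted p = 0.000496). ENST00000356950, the H2B member with most disomes per length, stayed at 699 and 676 CPM in DMSO, 670.2 CPM at 1 µM and 675 CPM at 10 µM. In DESeq2 the rise of ENST00000314332 was not called (adjusted p = 0.0685), and neither was that of the H2A member ENST00000331380 (adjusted p = 0.12), while both falls were.

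Of the H4 members, 2 rose and 2 fell by edgeR. ENST00000377727 had the lowest disome fold change of the members, with 300.1 and 254 CPM in DMSO, 274 CPM at 1 µM and 119 CPM at 10 µM (log2 fold change -1.21 ± 0.17 SE, edgeR adjusted p = 6.44e-11). ENST00000377745 also fell, with 292 and 271 CPM in DMSO, 328 CPM at 1 µM and 181 CPM at 10 µM (log2 fold change -0.64, edgeR adjusted p = 0.000598). ENST00000377803 rose, with 471 and 445 CPM in DMSO, 682 CPM at 1 µM and 667 CPM at 10 µM, at log2 fold changes of 0.57 ± 0.14 at 1 µM and 0.54 ± 0.14 at 10 µM (SE; edgeR adjusted p = 0.00112 and 0.000396). ENST00000611927 rose as well, at 66.1 and 51.7 CPM in DMSO, 68.8 CPM at 1 µM and 90.8 CPM at 10 µM (log2 fold change 0.64, edgeR adjusted p = 0.00613). The H3 member ENST00000621411 had 613 and 592 CPM in DMSO, 684 CPM at 1 µM and 779 CPM at 10 µM (log2 fold change 0.37, edgeR adjusted p = 0.0174). DESeq2 gave nearly the same fold changes but called only the fall of ENST00000377727 among these 5 members, with adjusted p of 0.053 for ENST00000377745, 0.0802 for ENST00000377803 at 10 µM and 0.143 at 1 µM, 0.244 for ENST00000611927 and 0.285 for ENST00000621411. Without disome DMSO 2, edgeR's joint fit did not call ENST00000611927 (log2 fold change 0.46, adjusted p = 0.0757).

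At 1 µM, 4 of the 24 members were called higher in disomes, 3 H2A and 1 H4, and none lower, beside 5.39% of all rows called higher and 1.68% lower, and 9.66% and 0.868% of rows from 100 to under 150 codons. DESeq2 called 0 of them at this dose and the joint fit 8. The comparisons at 1 µM and 10 µM share their DMSO libraries.

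**Figure D3:**
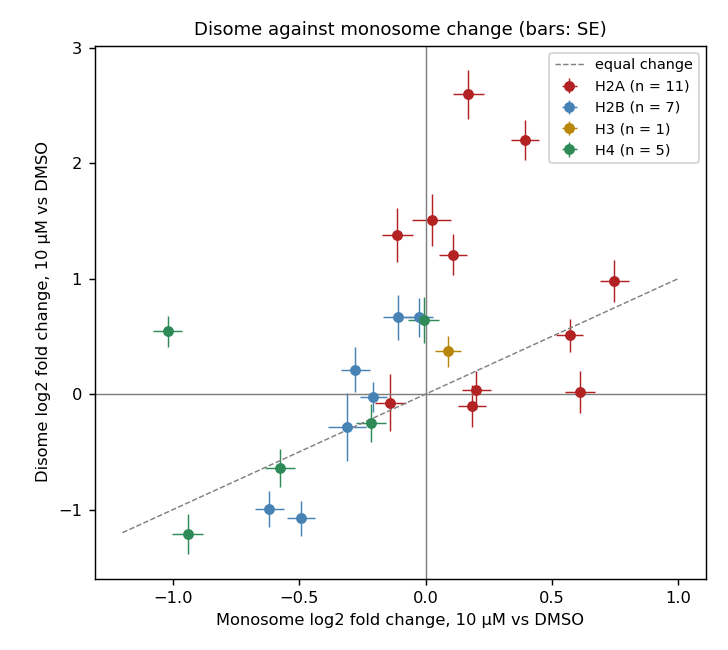
Disome against monosome log2 fold change at 10 µM against DMSO for the 24 core histone coding regions tested in both, coloured by family, with bars of 1 SE and a dashed line of equal change. Several H2A points lie far above the line, up to 2.60 in disomes for ENST00000618958, whose disome row was not the same in both alignments. In H4, 1 point lies at -1.02 in monosomes and 0.54 in disomes.

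The change of disomes beyond that of monosomes was tested as an interaction of kind and dose over 8 libraries. At 10 µM, 10 of the 24 members had more disomes relative to monosomes and 2 had fewer, beside 12.1% and 6.52% of all 41670 rows, and 16% and 4.3% of rows from 100 to under 150 codons. The calls were 5 higher and 1 lower of 11 H2A, 3 higher and 1 lower of 7 H2B, and 2 higher of 5 H4 members, and the H3 member was not called. The member median was 0.21 on the log2 scale (range -0.59 to 2.43), against -0.02 over all rows and 0.18 over rows from 100 to under 150 codons. At 1 µM, 6 members were called higher, 5 H2A and 1 H4, and none lower, beside 2.7% and 0.454% of all rows, and 4.17% and 0.486% of rows from 100 to under 150 codons. Members with too few disome counts gave no ratio, but the rows set beside them did not have to pass the disome filter. The shares and medians at both doses thus rest on unlike filters. Among the 9 H2A members paired the same way in both alignments, 4 were called higher and 1 lower at 10 µM. DESeq2 called 2 of 24 at 1 µM. Without a monosome DMSO library 2 were called at 1 µM for either library left out, and without disome DMSO 1 there were 11, 10 higher and 1 lower.

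The H2A member ENST00000618958 had a disome to monosome CPM ratio of 0.114 and 0.106 in DMSO, 0.255 at 1 µM and 0.590 at 10 µM, and its log2 change at 10 µM was 2.43 ± 0.18 (SE; edgeR adjusted p = 2.16e-18). ENST00000333151 had a ratio of 0.176 and 0.178 in DMSO, 0.268 at 1 µM and 0.621 at 10 µM (log2 change 1.81 ± 0.15 SE, edgeR adjusted p = 4.16e-16). Both stepped up at each dose, but only for ENST00000333151 was the disome row the same in both alignments. ENST00000359193 had 0.172 and 0.149 in DMSO, 0.226 at 1 µM and 0.342 at 10 µM (log2 change 1.11, edgeR adjusted p = 1.29e-08). ENST00000615868 was the H2A member with fewer disomes per monosome, at 0.594 and 0.631 in DMSO, 0.541 at 1 µM and 0.406 at 10 µM (log2 change -0.59, edgeR adjusted p = 0.00292, DESeq2 adjusted p = 0.0963).

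In the other families, the H4 member ENST00000377803 had a ratio of 0.742 and 0.753 in DMSO, 1.32 at 1 µM and 2.21 at 10 µM, with log2 changes of 0.85 at 1 µM and 1.57 ± 0.14 (SE) at 10 µM and edgeR adjusted p of 7.66e-06 and 1.53e-15. By edgeR it was the 1 member called higher in disomes and lower in monosomes. DESeq2 did not call its disome rise, but called the ratio at 10 µM, with a log2 change of 1.58 at an adjusted p of 3.8e-11. The H4 members ENST00000377745 and ENST00000377727 kept ratios of 0.653 and 0.562 at 10 µM, against 0.691 and 0.674 for the first and 0.733 and 0.626 for the second in DMSO, and were not called. ENST00000611927 had 0.508 at 10 µM against 0.348 and 0.305 in DMSO (log2 change 0.67, edgeR adjusted p = 0.00306). Of H2B, ENST00000314332 had 0.483 at 10 µM against 0.277 and 0.322 in DMSO (log2 change 0.69, edgeR adjusted p = 0.000213), and ENST00000369155 had 0.387 against 0.645 and 0.514 (log2 change -0.57, edgeR adjusted p = 0.0018). In DESeq2 the ratios of ENST00000611927 and ENST00000369155 were not called (adjusted p = 0.107 and 0.121). Leaving out monosome DMSO 1 ended edgeR's calls for the ratios of ENST00000314332 (log2 change 0.60, adjusted p = 0.0627), ENST00000611927 (0.55, adjusted p = 0.177) and ENST00000615868 (-0.64, adjusted p = 0.07). Leaving out monosome DMSO 2 ended those of ENST00000611927 (0.72, adjusted p = 0.0534) and ENST00000615868 (-0.58, adjusted p = 0.107).

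**Figure D4:**
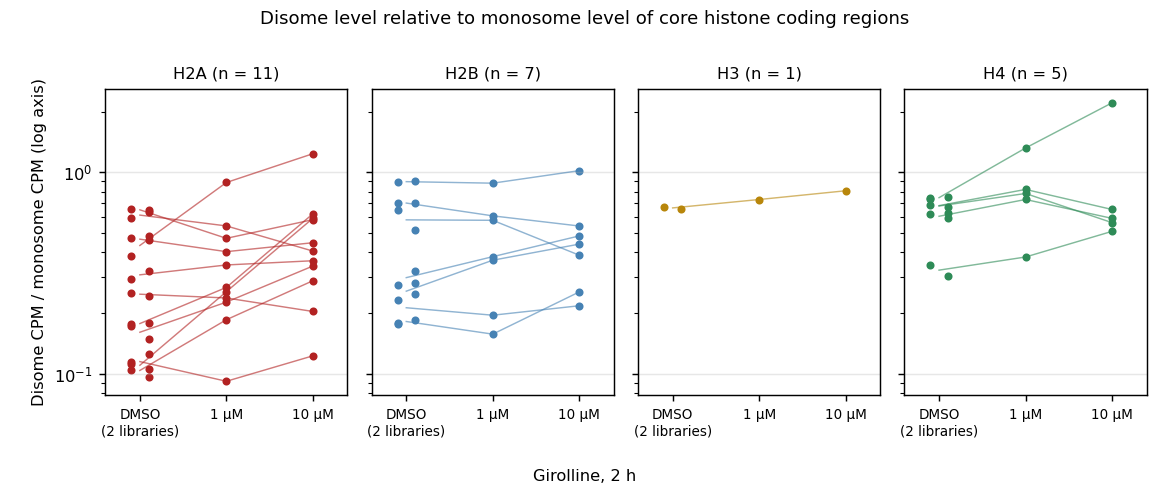
Disome CPM divided by monosome CPM (log axis) of each core histone coding region in each library, by family; points are libraries (2 for DMSO, 1 per dose) and lines join the DMSO mean to the 2 doses. The steepest H4 line ends at 2.21 at 10 µM, and the steepest H2A line, that of ENST00000618958, ends at 0.590. The disome row of that H2A member was not the same in both alignments.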

How the data were processed

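The authors deposited 1 table per library of whole-number read counts per transcript with a length and no normalization. The submitters' processing notes list hg38, CASAVA 1.8 and STAR 2.7.0a without saying what each was used for. The counting tool and the handling of reads with several matches are not given in the sources used here. RNA-seq and disome tables use other IDs than monosome tables, so rows were paired by the longest common order of full coding lengths. Lengths were taken to be in codons, a unit inferred from the values, and the counted stretch is shorter than the full length by 20 in RNA-seq and 10 in monosome tables. Rows with identical counts in all libraries of a kind were merged. Tests used R 4.3.3 and edgeR 4.0.16 (filterByExpr, TMM, quasi-likelihood test, Benjamini-Hochberg over all rows, FDR 0.05), each kind alone with 1 residual degree of freedom and the disome to monosome interaction with 2. The scripts were tested on simulated data. DESeq2 1.42.0, other scalings, filters and pairings, and leaving out each DMSO library were alternatives. Members named with values were the top 3 of each family by monosome level, the extremes of disome change and members called against the majority, and the rest were chosen after their values were seen. The members and lists were chosen with earlier results of these data known. DMSO libraries numbered alike were not paired, since the labels give no shared batch.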

Additional observations from a re-analysis of the deposited data

Results flagged for a closer look

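The H4 member ENST00000377803 drew attention because its disome and monosome footprints changed in opposite directions at 10 µM, and the test of that difference gave a log2 change of 1.57 (edgeR adjusted p = 1.53e-15). Its monosome level was 302 CPM at 10 µM against 634 and 592 CPM in DMSO, and its disome level was 667 CPM at 10 µM against 471 and 445 CPM in DMSO. In DESeq2 the difference was also called (log2 change 1.58), but the disome rise alone was not (log2 fold change 0.54, adjusted p = 0.0802). Each dose rests on 1 library.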

How the results depend on the processing

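No count of called members changed direction under any alternative run, although a run that called 0 members has no direction to compare. With both doses taken as 1 group, 1 member was called in disomes and 0 in monosomes, RNA-seq and the disome to monosome ratio. DESeq2 called 9 in disomes at 10 µM, 0 in disomes, 2 in monosomes and 2 in the ratio at 1 µM. The joint fit of 12 libraries called 8 in disomes at 1 µM, and 11 at 10 µM and 0 at 1 µM in monosomes. Leaving out 1 DMSO library gave 15 to 16 calls in disomes at 10 µM, 5 at 1 µM, 8 to 9 in monosomes at 10 µM, 0 at 1 µM, 24 in RNA-seq at 10 µM, 8 to 15 in the ratio at 10 µM and 2 to 11 at 1 µM. For single kinds these were joint fits of the 12 libraries, since a kind alone would leave no residual degree of freedom. The cause of these differences between settings was not tested. With the replicate number as a block, the ratio had 12 calls at 10 µM and 5 at 1 µM. The DMSO deviations of same-numbered libraries correlated at 0.068 (disome and monosome), 0.316 (disome and RNA-seq) and -0.165 (monosome and RNA-seq) across 4100 rows. Over the named members, 1434 values were computed under alternatives: 117 calls were lost, 26 were gained, and 0 were called with the opposite sign. Of 84 medians over the members under alternatives, 21 moved by more than the spread between the DMSO libraries and 0 changed sign. Medians of all rows moved by less than 0.1 between scalings. Disome depth limits members with few footprints.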
